A study of Homo sapiens with 4 samples.

Results

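The interferon-induced transmembrane (IFITM) genes and BST2 were examined in BLaER1 cells after knockdown of the long non-coding RNA HAL7. The 6 genes are IFITM1, IFITM2, IFITM3, IFITM5, IFITM10 and BST2, taken by symbol from 43450 genes in the expression table, and all 6 had a row. They were chosen by symbol with the measured difference between knockdown and control libraries already known, that of IFITM3 in particular, so their differences are given as a description. The fit over all genes included 5 of them, and the number it called is given with nothing read from it. BLaER1 is a human B cell leukaemia line with an inducible C/EBPα transgene, and every library came from it. The libraries were 2 from cells with HAL7 knockdown and 2 from control cells, each pair numbered replicate 0 and replicate 1. Antisense GapmeRs, 3 of them and all directed at HAL7, were put into the culture medium without a transfection step. The sources used here do not give what control cells received, how long treatment lasted or whether the line was induced towards macrophages. Nothing in the labels says that replicates were separate cultures, so spread and p-values reflect these libraries and may be technical.

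IFITM proteins are small membrane proteins that make it harder for enveloped viruses to fuse with a cell. IFITM1 sits mostly at the cell surface, and IFITM2 and IFITM3 mostly in endosomes. BST2, also called tetherin, acts at the other end of the viral cycle and holds budding particles at the surface. Type I interferon induces IFITM1, IFITM2, IFITM3 and BST2 through transcription factors that bind the interferon-stimulated response element (ISRE) in promoters. In B cells IFITM3 has been described as a scaffold of phosphoinositide 3-kinase signalling. IFITM5 is known from bone-forming cells, and IFITM10 is little characterised.

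IFITM2 and IFITM3 are near copies and IFITM1 shares stretches with both, which matters for any value assigned to 1 of the 3. Aligned over their coding sequences, IFITM2 and IFITM3 were 93.2% identical, IFITM1 and IFITM3 68.4% and IFITM1 and IFITM2 66.4%, gaps counted as differences. IFITM5 was 55.7% identical to IFITM1, and IFITM10 was 39.4% identical to IFITM3. The first 123 coding bases of IFITM2 (GRCh38 chr11:308193-308315, plus strand) and IFITM3 (chr11:320691-320813, minus strand) are shown because this exon start holds much of what tells them apart. Capitals mark bases that differ or are missing in the other gene.
IFITM2: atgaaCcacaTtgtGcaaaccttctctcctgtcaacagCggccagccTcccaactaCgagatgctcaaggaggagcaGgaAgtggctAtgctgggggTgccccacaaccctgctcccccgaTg
IFITM3: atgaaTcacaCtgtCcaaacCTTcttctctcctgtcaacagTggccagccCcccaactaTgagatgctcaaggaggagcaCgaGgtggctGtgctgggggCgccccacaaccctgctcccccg
These stretches hold 11 marked bases in IFITM2 and 13 in IFITM3, of 24 and 27 over the whole coding sequences. Farther along, all 3 genes share an unbroken run of 99 bases that crosses from exon 1 into exon 2. It lies at coding base 175 of IFITM1, 235 of IFITM2 and 238 of IFITM3.
Shared run: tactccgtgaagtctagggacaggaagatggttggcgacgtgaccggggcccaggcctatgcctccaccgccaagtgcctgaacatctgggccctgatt
A read from inside this run cannot be placed in 1 of the 3 genes by its letters. Of the 50-nt windows in the longest coding transcript, 154 of 759 in IFITM3 (20.3%) also occurred in another annotated gene, as did 133 of 843 in IFITM2 (15.8%) and 341 of 806 in IFITM1 (42.3%). With 100-nt windows the shares were 5.92%, 0% and 37.7% in the same order. An annotated IFITM2 transcript at positions 308408 to 315272 ends at the same base as IFITM1, and 314 of the shared 50-nt windows of IFITM1 lay in IFITM2 transcripts. BST2 and IFITM5 shared 0 windows of 50 nt with other genes. IFITM10 shared 27.8%, all with AC068580.4, an overlapping coding gene. The sources used here do not give how reads that match several genes were shared out, so the values of IFITM1, IFITM2 and IFITM3 are uncertain to that extent.

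The promoters are shown because the interferon response element is what IFITM1, IFITM2, IFITM3 and BST2 are known for. RefSeq windows on GRCh38.p14, running from 250 bases before to 50 after the start, were found for 4 of the 6 genes, IFITM1, IFITM3, IFITM5 and BST2. The last 150 bases before the start and the first 10 after it follow for the 3 genes with a match to the ISRE letters, GAAA, any 2 bases and GAAA again, on either strand, with the matches in capitals. The windows are chr11:313890-314049 on the plus strand for IFITM1, chr11:320851-321010 on the minus strand for IFITM3 and chr19:17405621-17405780 on the minus strand for BST2.
IFITM1: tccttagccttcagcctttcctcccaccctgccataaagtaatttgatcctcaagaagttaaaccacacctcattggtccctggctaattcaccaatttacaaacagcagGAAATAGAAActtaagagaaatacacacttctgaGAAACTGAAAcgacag
IFITM3: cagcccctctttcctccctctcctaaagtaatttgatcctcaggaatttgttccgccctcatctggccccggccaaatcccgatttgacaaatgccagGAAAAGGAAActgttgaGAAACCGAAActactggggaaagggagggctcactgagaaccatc
BST2: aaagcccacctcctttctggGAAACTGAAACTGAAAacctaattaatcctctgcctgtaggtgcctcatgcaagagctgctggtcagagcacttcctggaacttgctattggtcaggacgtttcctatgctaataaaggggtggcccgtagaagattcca
Counting the base before the start as -1, matches began at -40 and -6 in IFITM1, at -52 and -35 in IFITM3 and at -130 and -124 in BST2, where the pair overlaps. The IFITM5 window held none. On either strand, 3.57% of 35116 promoter windows of the same length hold these letters. The shorter GAS letters TTCNNNGAA, known from interferon gamma responses and present in 7.66% of windows, occurred once in IFITM1 and at -136 and -58 in BST2. The IFITM1 match at -12 and the first BST2 match overlap an ISRE match. A match is a description of letters and not a measured binding site. Over the 160 bases shown, IFITM1 and IFITM3 were 60.7% identical.

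Between 12902 and 12974 genes per library reached 1 FPKM, the unit of fragments scaled to transcript length and library size. Depth is not stated, but the steps between low values in 1214 long genes with a single transcript give relative depths of 1.77 and 1.59 in knockdown replicates 0 and 1, and of 1 and 2.11 in control replicates 0 and 1. Control replicate 0, the shallowest, correlated least with the others (Pearson's r across genes of 0.985 to 0.989). Control replicate 1 correlated more with knockdown replicates 0 and 1 (0.994 and 0.993) than with control replicate 0 (0.989). The 2 knockdown libraries correlated most with each other (0.995), so only the control pair did not group by treatment in these correlations. HAL7 was 0.475 and 0.347 FPKM in knockdown libraries and 0.726 and 0.613 FPKM in control libraries. Its groups did not overlap, at a ratio of means of 0.614, but it lay under the level required for testing. Tested without that filter in limma, it had an adjusted p of 0.44 and an unadjusted p of 0.031. Across the 12934 genes tested in limma, 4 passed an adjusted p of 0.05 (0.0309%), and 2148 (16.6%) had an unadjusted p under 0.05.

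IFITM3 stood lower after knockdown, without overlap between the groups, and its difference was the largest of the 5 genes tested. IFITM3, which blocks viruses that enter through endosomes, had 13.1 and 13.0 FPKM in knockdown replicates 0 and 1, against 18.2 and 19.5 FPKM in control replicates 0 and 1. The knockdown pair lay close together and well under the lower control library. Means were 13.0 ± 0.126 FPKM in knockdown and 18.9 ± 0.974 FPKM in control libraries (SD, n = 2 each), a ratio of 0.692. Between single libraries the ratio ran from 0.663 to 0.723, whichever knockdown and control library were paired. On the log2(FPKM + 1) scale the difference was -0.50 ± 0.06 (SE), at rank 61 from the lowest of 12934 tested genes, so that 0.464% had a lower one. These values correspond to about 1135 and 1001 fragments in knockdown libraries and 885 and 2009 in control libraries over a transcript of 808 nt. Counting error alone is small at such numbers, but they are worked back from FPKM, after any sharing of reads among genes. The same reckoning gives IFITM2 about 43803 and 39156 fragments in knockdown libraries and 29839 and 56088 in control libraries. Error from reads that match both IFITM2 and IFITM3 was not tested. IFITM3 (ENSG00000142089.9) is protein-coding and lies on the minus strand of chromosome 11, from 319669 to 327537 on GRCh38. In these bulk libraries, fewer cells with the transcript and less transcript per cell cannot be told apart.

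**Figure D1:**
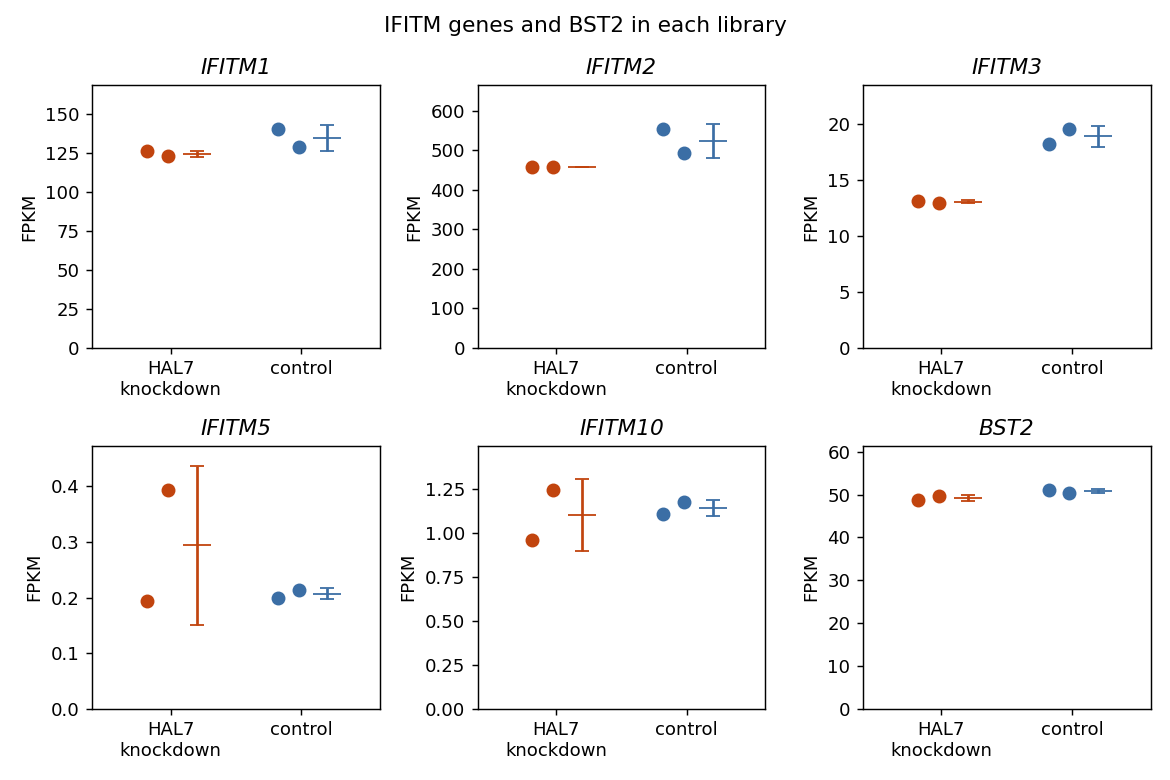
FPKM (vertical axes, from 0, a scale of its own for each gene) of the IFITM genes and BST2 in knockdown (left) and control (right) libraries. Points are libraries, and the marks beside them show the mean and SD (n = 2 each). IFITM3 sits at 13.0 and 13.1 FPKM in knockdown libraries, under 18.2 and 19.5 FPKM in control libraries, while IFITM10 and IFITM5 overlap between groups.

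IFITM2 was by far the most abundant of the family. It had 459.0 and 458.8 FPKM in knockdown libraries, against 554.8 and 494.2 FPKM in control libraries, which placed its mean level at rank 166 of 12934 tested genes. The knockdown values were almost equal, while the control libraries differed by a factor of 1.12, and the groups did not overlap. Means were 458.9 ± 0.146 FPKM in knockdown and 524.5 ± 42.9 FPKM in control libraries (SD, n = 2 each), a ratio of 0.875 and a log2 difference of -0.19 ± 0.07 (SE). The size of that gap rested on control replicate 0, without which it was -0.11. IFITM2 (ENSG00000185201.10) spans 307631 to 315272 on the plus strand of chromosome 11.

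IFITM1 showed a smaller gap in the same direction. Its levels were 125.7 and 122.9 FPKM in knockdown libraries and 140.3 and 128.3 FPKM in control libraries, rank 547 by mean level. The groups did not overlap, but knockdown replicate 0 was 0.980 times control replicate 1. Means were 124.3 ± 2.01 FPKM in knockdown and 134.3 ± 8.45 FPKM in control libraries (SD, n = 2 each), a ratio of 0.926 and a log2 difference of -0.11 ± 0.06 (SE). Without control replicate 0 the difference was -0.05 and without control replicate 1 it was -0.17, so the size of this gap depended on which control library was used. IFITM1 (ENSG00000185885.10) spans 313506 to 315272 on the plus strand of chromosome 11.

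Within the trio the shares of IFITM3 and IFITM1 did not overlap between groups, and that of IFITM2 did. IFITM3 made up 2.20% and 2.18% of the summed IFITM1, IFITM2 and IFITM3 FPKM in knockdown libraries, against 2.55% and 3.04% in control libraries. IFITM1 made up 21.0% and 20.7% in knockdown libraries, against 19.7% and 20.0% in control libraries. IFITM2 supplied 76.8% and 77.2% in knockdown libraries and 77.8% and 77.0% in control libraries. Knockdown libraries thus had a smaller share of IFITM3 and a slightly larger one of IFITM1. The level of IFITM2 was 35.0 and 35.4 times that of IFITM3 in knockdown libraries and 30.5 and 25.3 times in control libraries. IFITM2 was 3.65 and 3.73 times IFITM1 in knockdown libraries and 3.95 and 3.85 times in control libraries. Summed over the 3 genes, the level was 596.2 ± 2.28 FPKM in knockdown and 677.6 ± 50.3 FPKM in control libraries (SD, n = 2 each), a ratio of 0.880. The part of the shared sequence in the IFITM3 values was not tested.

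**Figure D2:**
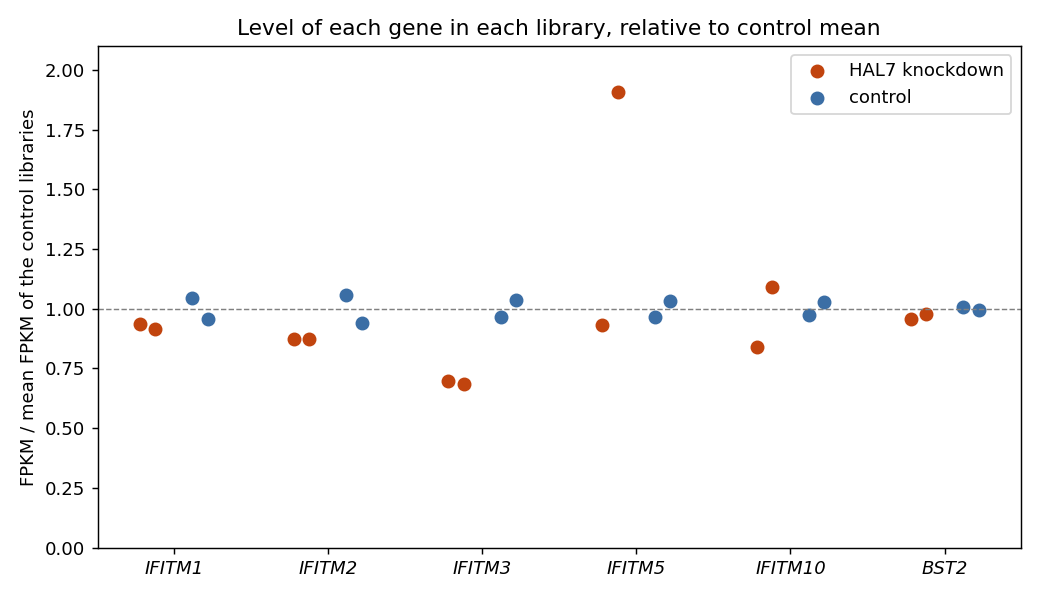
Each library's FPKM divided by the mean FPKM of the 2 control libraries (vertical axis, from 0), with knockdown libraries to the left of control libraries for each gene. IFITM3 stands lowest in knockdown libraries, at a ratio of means of 0.692, and BST2 nearest to 1, at 0.968, among the genes whose groups do not overlap.

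BST2 differed little between groups. Its levels were 48.8 and 49.6 FPKM in knockdown libraries and 51.2 and 50.5 FPKM in control libraries. All 4 values lay close together, and the knockdown pair was just under the control pair. Means were 49.2 ± 0.620 FPKM in knockdown and 50.8 ± 0.502 FPKM in control libraries (SD, n = 2 each), a ratio of 0.968 and a log2 difference of -0.05 ± 0.05 (SE). BST2 (ENSG00000130303.7) lies on the minus strand of chromosome 19, from 17402939 to 17405648, apart from the IFITM cluster.

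IFITM10 and IFITM5 had low levels that overlapped between groups. IFITM10 had 0.960 and 1.25 FPKM in knockdown libraries and 1.11 and 1.18 FPKM in control libraries, so the knockdown pair enclosed the control pair. Its transcript of 3706 nt gave about 381 and 443 fragments in knockdown libraries and 248 and 554 in control libraries. Its log2 difference was -0.03 ± 0.10 (SE), and the overlapping gene AC068580.4, with which it shares sequence, had 0.829 and 0.864 FPKM in knockdown libraries and 0.861 and 1.15 FPKM in control libraries. IFITM5 had 0.193 and 0.394 FPKM in knockdown libraries and 0.200 and 0.214 FPKM in control libraries. The higher knockdown value stands for about 27.8 fragments and the others for 15.2, 8.86 and 20.0. The IFITM5 values thus rest on few fragments and were not tested, and nothing is read from their difference. Among the IFITM pseudogenes, IFITM8P and IFITM9P were listed at 0 in all 4 libraries. IFITM4P was at 0.191 and 0.422 FPKM in knockdown libraries and at 0 and 0.156 FPKM in control libraries.

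Of the 6 genes, 5 passed the filter of a mean of at least 1 FPKM, and IFITM5 did not. In 4 of these 5 the knockdown libraries both lay under the control libraries, as they did in 27.7% of all tested genes. In limma 0 of the 5 were called at an adjusted p of 0.05, against 0.0309% of all tested genes (0.0232% lower in knockdown), and 2 (IFITM2 and IFITM3) had an unadjusted p under 0.05, against 16.6%. Since the genes were picked with this contrast known, nothing is read from these counts. The log2 difference was below 0 in 5 of the 5, as in 53.2% of all tested genes, with a median of -0.11 beside -0.01 over all. Log2 differences in these libraries ran lower with transcript GC content, with a median of -0.08 in the fifth of genes of highest GC, at 58.8% or more, and of 0.07 in the fifth of lowest GC. Averaged over its transcripts IFITM3 had a GC content of 60.0%, IFITM1 56.8%, IFITM2 56.3%, BST2 56.6% and IFITM10 67.2%. With the GC trend removed the difference was -0.43 for IFITM3, -0.15 for IFITM2, -0.06 for IFITM1, -0.00011 for BST2 and 0.10 for IFITM10.

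**Figure D3:**
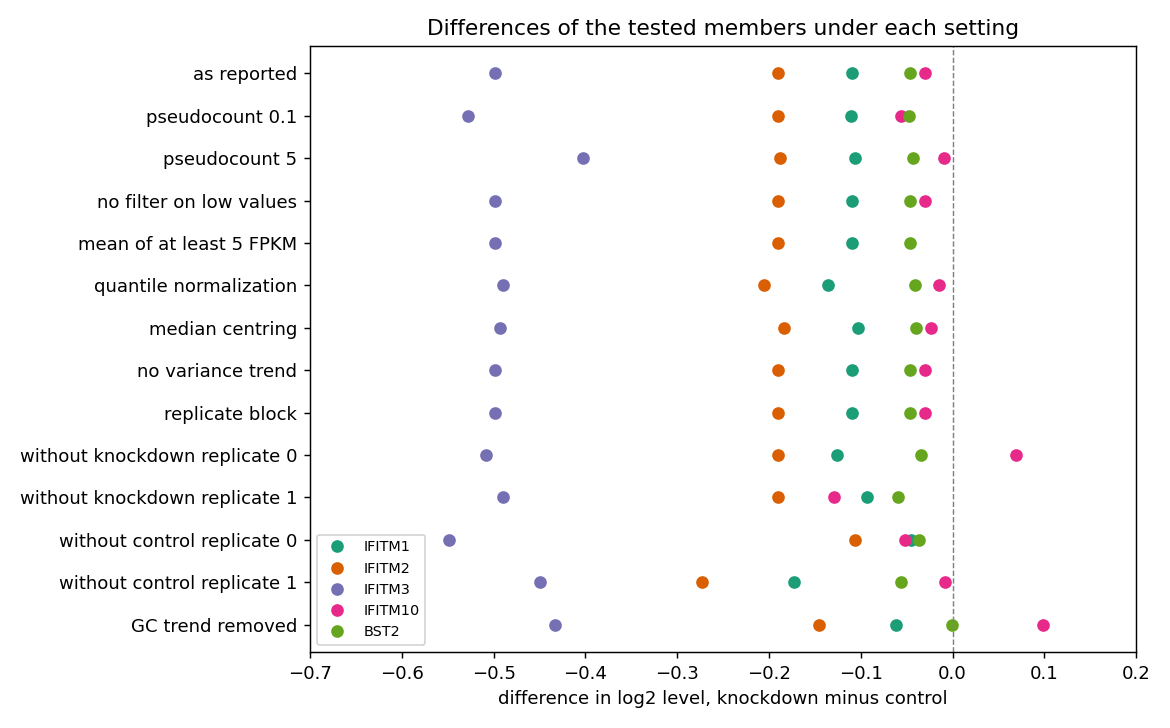
Difference in log2 level, knockdown minus control (horizontal axis), of the 5 tested genes under the reported setting and each alternative (rows). IFITM3 stays between -0.55 and -0.40 under every setting drawn, while IFITM10 crosses 0 without knockdown replicate 0 and with the GC trend removed.

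Genes of the interferon response were more often lower than higher after knockdown, by a margin that rested on knockdown replicate 1, and none passed the test. Of 54 listed interferon-stimulated genes other than the 6, 45 were tested and 34 had negative and 11 positive log2 differences, with a median of -0.07. Without knockdown replicate 1, 26 were negative and 19 positive with a median of -0.01, and without knockdown replicate 0, 36 and 9 with a median of -0.12. In limma 0 passed over all genes (lowest adjusted p of 0.19), and 8 lower and 2 higher genes had an unadjusted p under 0.05. Among all 12934 tested genes, 1210 lower and 938 higher had such a p, 0.0309% were called and 53.2% were negative. ISG15, a ubiquitin-like modifier, had 21.4 and 25.8 FPKM in knockdown libraries against 28.8 and 28.7 FPKM in control libraries. LGALS3BP, a secreted galectin-binding protein gene, and TRIM14, an adaptor of antiviral signalling, stood at ratios of 0.883 and 0.864. IFI16, a sensor of DNA, stood higher, with 72.8 and 74.3 FPKM in knockdown libraries against 64.3 and 62.5 FPKM in control libraries. Knockdown and control libraries did not overlap in 18 lower and 5 higher genes of the 45, where 27.7% and 22.5% of all tested genes did so.

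Receptors and signal transducers of interferon were nearly balanced with all libraries, but the balance depended on the libraries used. Of 16 tested genes of 17 listed, 9 were negative and 7 positive, with a median of -0.06, against 53.2% negative over all tested genes. In limma 0 passed over all genes (lowest adjusted p of 0.20), against 0.0309% of all tested genes. An unadjusted limma p under 0.05 was seen in 3 lower and 2 higher genes, against 1210 and 938 of 12934 tested genes. Without knockdown replicate 0, 11 were negative and 5 positive, with a median of -0.08. The counts were the same without control replicate 0, with a median of -0.10. Without knockdown replicate 1, 8 were negative and 8 positive, with a median of -0.01. Without control replicate 1 the counts were 9 and 7, with a median of -0.04. IFNAR1, a chain of the type I interferon receptor, had 15.1 and 14.2 FPKM in knockdown libraries against 12.6 and 11.5 FPKM in control libraries. IFNGR1, a chain of the interferon gamma receptor, stood at a ratio of 1.12. IRF1, a transcription factor that also binds the ISRE, had 51.1 and 50.3 FPKM in knockdown libraries against 56.4 and 57.6 FPKM in control libraries, and SOCS1, an inhibitor of the pathway, stood at 0.776. Interferon genes themselves were all under the tested level. The 21 listed summed to 0.316 and 0.349 FPKM in knockdown libraries and 0.307 and 0.499 FPKM in control libraries, and 9 of them were listed at 0 throughout.

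Other restriction factors, which block viruses by other means, were also mostly negative. Of 24 listed, 21 were tested, 18 negative and 3 positive, with a median of -0.10, against 53.2% negative over all tested genes. Without knockdown replicate 1, 15 were negative and 6 positive, with a median of -0.06. In limma 0 passed over all genes (lowest adjusted p of 0.21), against 0.0309% of all tested genes. An unadjusted limma p under 0.05 was seen in 4 lower and 0 higher genes, against 1210 and 938 of 12934 tested genes. SERINC5, which lowers the infectivity of retroviral particles, had 35.6 and 32.5 FPKM in knockdown libraries against 40.6 and 39.2 FPKM in control libraries. LY6E, a membrane-anchored protein that acts on viral entry, had 105.9 and 119.1 FPKM in knockdown libraries against 132.0 and 125.3 FPKM in control libraries. SLFN5 and the DNA-editing enzyme gene APOBEC3G stood at ratios of 0.760 and 0.890.

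**Figure D4:**
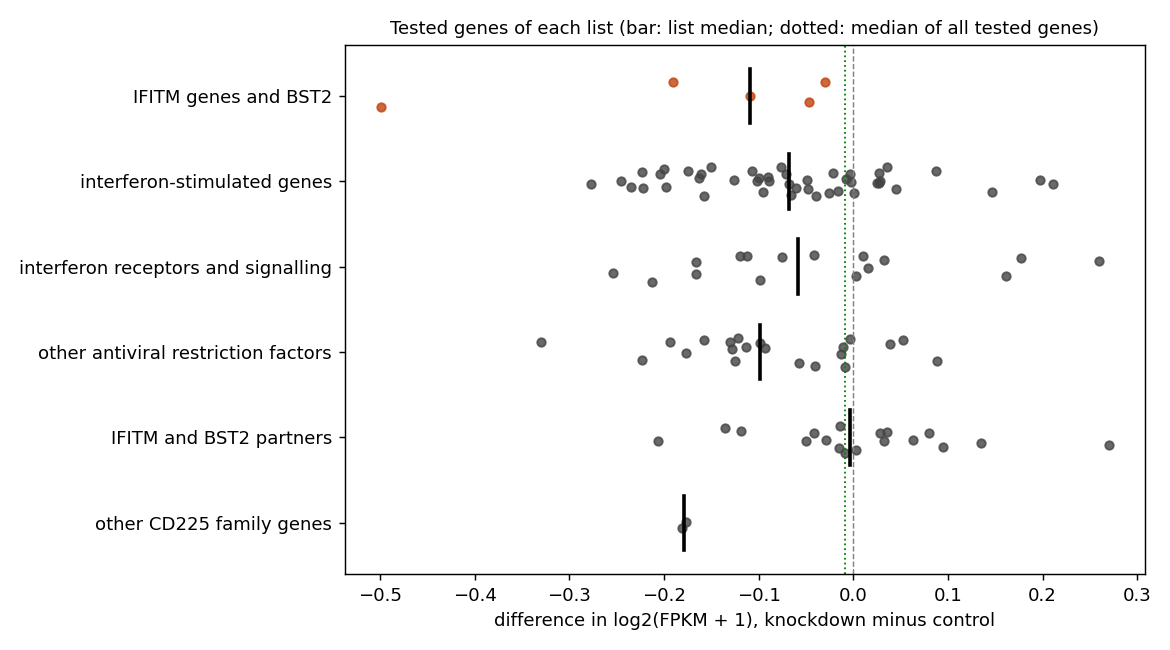
Difference in log2(FPKM + 1), knockdown minus control (horizontal axis), of each tested gene (points) in the IFITM and BST2 group and in 5 related lists (rows), with bars at list medians. The medians of interferon-stimulated genes (-0.07) and other restriction factors (-0.10) lie left of the median of all tested genes (-0.01, dotted), and IFITM3, at -0.50, lies left of every point of the other lists.

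Proteins that modify or bind IFITM proteins and BST2 did not lean to 1 side. Of 20 listed genes 18 were tested, 9 negative and 9 positive, with a median of -0.0032, which was 0.015 without knockdown replicate 0. Over all tested genes 53.2% were negative. In limma 0 of the 18 passed over all genes (lowest adjusted p of 0.19), against 0.0309% of all tested genes. An unadjusted limma p under 0.05 was seen in 1 lower and 1 higher gene, against 1210 and 938 of 12934 tested genes. ZMPSTE24, a membrane protease that cooperates with IFITM proteins in blocking viral entry, had 14.8 and 14.8 FPKM in knockdown libraries against 12.5 and 11.7 FPKM in control libraries. AP2A1, a subunit of the clathrin adaptor that takes up IFITM3 from the surface, had 13.2 and 13.6 FPKM in knockdown libraries against 15.7 and 15.5 FPKM in control libraries. ZDHHC20, which attaches palmitate to IFITM3, and ARHGAP44, a partner of BST2 at the cortex, stood at ratios of 1.10 and 0.880.

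Other genes of the CD225 family, to which IFITM proteins belong, were mostly silent. Of 7 listed 2 were tested. In limma 0 passed over all genes and 1 had an unadjusted p under 0.05, against 0.0309% and 16.6% of all tested genes. PRRT2, known from neurons, had 15.4 and 16.2 FPKM in knockdown libraries against 16.8 and 19.4 FPKM in control libraries. TMEM91 had 3.47 and 3.25 FPKM in knockdown libraries against 3.93 and 3.92 FPKM in control libraries. PRRT1 averaged 0.714 FPKM in knockdown and 0.884 FPKM in control libraries, SYNDIG1L, SYNDIG1 and TRARG1 were lower still, and TMEM233 was listed at 0.

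Around the IFITM cluster at the end of the short arm of chromosome 11, B4GALNT4 was the neighbour with the largest gap. B4GALNT4, a glycosyltransferase gene 52.4 kb from IFITM3 between gene midpoints on GRCh38, had 14.7 and 14.3 FPKM in knockdown libraries against 18.5 and 20.3 FPKM in control libraries. That is a ratio of 0.746 with a limma adjusted p of 0.19, so it did not pass. PGGHG, on the other side at -31.0 kb, SIGIRR and ANO9 stood at ratios of 0.897, 0.914 and 0.892. PSMD13, a proteasome subunit gene named after its value was seen, stood at 1.01. Of the 12 neighbours tested, of 16 listed, 10 were negative and 2 positive, with a median of -0.07, against 53.2% negative over all tested genes. In limma 0 of the 12 passed over all genes, against 0.0309% of all tested genes. An unadjusted limma p under 0.05 was seen in 3 lower and 0 higher neighbours, against 1210 and 938 of 12934 tested genes. Without knockdown replicate 0, 8 were negative and 4 positive. Most of the 12 lay in the fifth of genes of highest GC content, whose median was -0.08. Beside IFITM10, CTSD, MOB2 and LSP1 were the 3 tested of 7 listed, at ratios of 0.935, 0.951 and 1.23, with 0 past limma and 1, LSP1, at an unadjusted p under 0.05. Beside BST2, 7 of 7 tested neighbours were negative, against 53.2% of all tested genes, with a median of -0.15, beside -0.05 for BST2 itself. This rested on knockdown replicate 0, without which 5 were negative and 2 (GTPBP3 and TMEM221, named after their values were seen) positive, with a median of -0.03, and BST2 was at -0.03. Without knockdown replicate 1 the median was -0.22. All 7 lay among the genes of highest GC content, at 58.8% or more, whose median was -0.08, while BST2 itself was at 56.6%. The part of GC content in the values of these 7 neighbours was not tested. In limma 0 of them passed, and 1, ANO8, had an unadjusted p under 0.05, at a ratio of 0.830, while MVB12A, SLC27A1 and NIBAN3 (FAM129C in the annotation) stood at 0.900, 0.889 and 0.899.

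**Figure D5:**
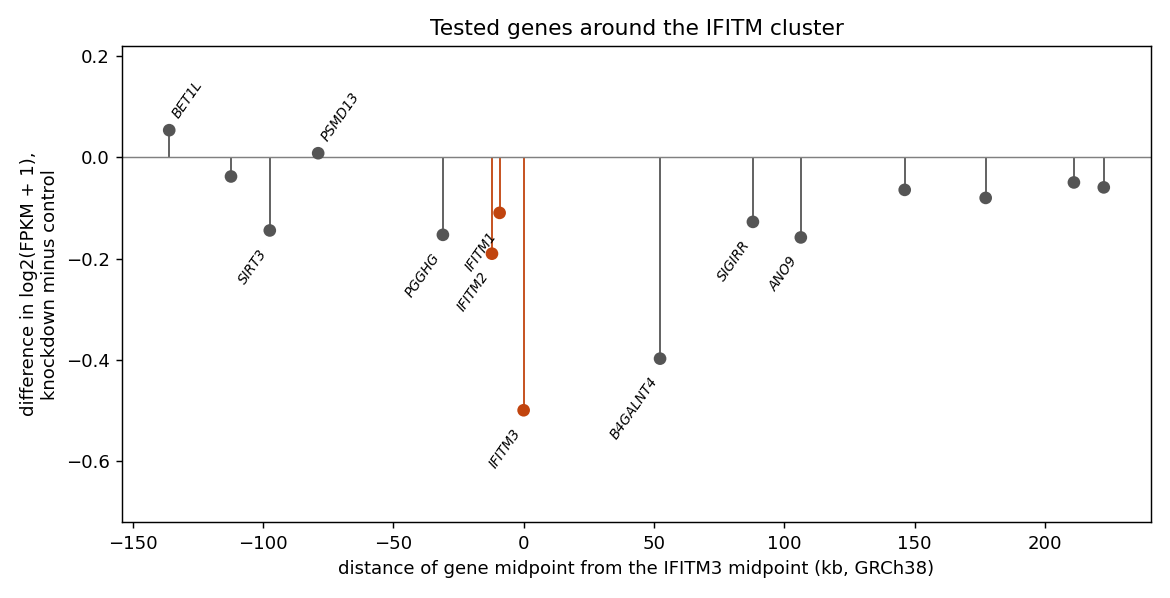
Difference in log2(FPKM + 1), knockdown minus control (vertical axis), of the tested genes around the IFITM cluster against the distance of their midpoints from that of IFITM3 (horizontal axis, kb, GRCh38). IFITM genes are in red and others in grey. IFITM3, at -0.50, and B4GALNT4, at -0.40, lie lowest, and the other genes drawn lie nearer to 0.

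By profile over the 4 libraries, measured as the Euclidean distance between centred log2(FPKM + 1) values, the closest named genes to IFITM3 were CRIP2, IFI30 and HECTD4, at distances of 0.017, 0.054 and 0.062. CRIP2 had 5.25 and 5.14 FPKM in knockdown libraries against 7.36 and 7.96 FPKM in control libraries. IFI30, the lysosomal thiol reductase gene of antigen processing, had 28.7 and 27.9 FPKM in knockdown libraries against 38.9 and 40.1 FPKM in control libraries. The profile of IFITM2 was nearest to those of PRR4, BBS9 and EYA4, at 0.016, 0.026 and 0.027. IFITM1 was nearest to IFI27L2, TRIM41 and PLAU, at 0.0085, 0.011 and 0.014, and BST2 to MSTO1, FBXO34 and ZC3H7B, at 0.0027, 0.0072 and 0.0073. IFITM3 was not among the 3 nearest to IFITM1, IFITM2 or BST2, nor any of them among the 3 nearest to IFITM3. With 12498 named genes tested, absence from a list of 3 says little about likeness, and nothing is read from it. The distances also include the difference between knockdown and control with which the members were chosen.

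B lineage markers were present in all 4 libraries. The 11 B cell markers found, of 12 listed, summed to 3909 and 3958 FPKM in knockdown libraries and 4033 and 4025 FPKM in control libraries, led by DNTT and IGLL1 at ratios of 0.975 and 0.996. Of these 11, 9 were negative and 2 positive, against 53.2% negative over all tested genes. Without knockdown replicate 0, 7 were negative and 4 positive. Without overlap between groups 6 were lower and 1 higher, against 27.7% and 22.5% of all tested genes. In limma 0 of the 11 passed over all genes. RAG1, a recombinase gene of early B cells named after its values were seen, had 215.8 and 190.9 FPKM in knockdown libraries against 239.7 and 251.9 FPKM in control libraries, and was the 1 of them with an unadjusted limma p under 0.05. Also named after their values were seen, CD79A and CD79B stood at 0.927 and 0.920 and VPREB1 at 1.11. The part of these B cell genes in the IFITM3 values was not tested. Of 11 monocyte and macrophage markers found, 2 were tested. CSF1R had 33.8 and 38.0 FPKM in knockdown libraries against 36.3 and 34.8 FPKM in control libraries, CD68 stood at 0.744, and CD14 averaged 0.131 FPKM in knockdown and 0.170 FPKM in control libraries. The 6 plasmacytoid dendritic cell markers, for cells known for high BST2, summed to 1.40 and 1.68 FPKM in knockdown libraries and 1.32 and 1.41 FPKM in control libraries, with PTCRA and NRP1 highest and CLEC4C and IL3RA at or near 0. Of 9 T and NK cell markers found, CD3D, CD3G and CD2 were listed at 0. NKG7, a cytotoxic granule gene, had 21.9 and 17.2 FPKM in knockdown libraries against 27.5 and 27.0 FPKM in control libraries, and NCAM1 stood at 0.927. NKG7 thus lay lower after knockdown as IFITM3 did, and its part in the IFITM3 values was not tested.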

How the data were processed

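Polyadenylated RNA of 2 HAL7 knockdown and 2 control libraries of BLaER1 cells was sequenced after TruSeq mRNA library preparation, per the labels' protocols. The deposited table holds 1 value per gene and library, read as FPKM because its ID column is named as Cuffdiff names it and its values are not whole. The submitters' processing notes name Cuffdiff 2.2.1, TopHat2 2.0.14, Bowtie2 2.2.5 and the build hg19. No source used here gives the annotation, scaling, strand use or read length.

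Names, positions, transcripts and GC content came from GENCODE 29 on GRCh38, matched by Ensembl ID without version, and promoters from RefSeq on GRCh38.p14. Of 239 list entries 235 were matched. The planned protein comparison was replaced by coding sequences, aligned with Biopython 1.88. The comparison used limma 3.58.1 (R 4.3.3) with a variance trend, two-sided, on log2(FPKM + 1), in the 12934 genes whose mean reached 1 FPKM, adjusted by Benjamini-Hochberg at 0.05. This scale understates changes of low genes. An exact permutation test of 2 against 2 cannot go below p = 0.333. The fit was tested on simulated data with independent libraries and larger changes than those of the members. That test does not cover differences of their size.

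The members and all lists were chosen with earlier results of these data known. Text names HAL7, the members, IFITM pseudogenes and CD225 genes, per other list genes past the threshold and the 4 of smallest p (for markers, the 2 most abundant), and the 3 nearest profiles. CD14 and markers listed at or near 0 are named besides, and further exceptions are marked. One list of genes is not reported here.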

Additional observations from a re-analysis of the deposited data

How the results depend on the processing

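Among the 5 tested members, 0 were called in limma under the reported setting and each of 13 alternatives, and 0 listed pathway genes were called under any of them. The log2 difference stayed below 0 for IFITM1, IFITM2, IFITM3 and BST2 in 13 of 13 alternatives. Most of these could not change its sign. In genes whose groups do not overlap, another pseudocount or a library left out keeps it. Filter, variance trend and block leave the difference as it was. Only rescaling the libraries or removing the GC trend could change the sign, and the latter put BST2 at -0.00011. For IFITM3 the log2 difference ran from -0.55 to -0.45 when single libraries were left out. It was -0.40 with a pseudocount of 5 and -0.43 with the GC trend removed, an alternative chosen after seeing the data. IFITM10 ran from -0.13 to 0.070 when single libraries were left out, turning above 0 without knockdown replicate 0, and was 0.10 with the GC trend removed; the cause was not tested. It had no value with a mean of at least 5 FPKM. Members whose groups did not overlap numbered 4 with all libraries and 4 to 5 with single libraries left out. Leaving out a library cannot make separate groups overlap, so this count could not fall, and nothing is read from it. Over all genes, 4 were called as reported, 2 with a pseudocount of 0.1, 1 with a mean of at least 5 FPKM and 0 without a filter, where 3002 genes had an unadjusted limma p under 0.05. Without knockdown replicate 0, 22 were called, without knockdown replicate 1, 12, and without either control library, 11. With the replicate number as a block, 19 genes were called. Replicate numbers are not stated to pair the libraries, and the deviations of equal numbers correlated at 0.12 across genes. With 1 library left in a group, its spread was taken to equal that of the opposite group. Leaving out single libraries for the gene lists, whose values stand beside each list, was also chosen after seeing the data. Depth limits IFITM5 and HAL7, at under 1 FPKM.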
